A study of Rattus norvegicus with 4 samples.

Results

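The genes described here encode the enzymes, membrane proteins and proton pump of the lysosome, and they were compared between lean and obese rats in retroperitoneal white fat. The list goes by gene name and known place in the lysosome; no measured value enters its rule, but it was drawn up with earlier results of these data known. Of 44 genes in the list, 43 had an array row of their own among the 14506 genes measured. Naglu is not analysed here. By role there were 12 cathepsins and other peptidases, 16 lipid and sugar hydrolases and other lumenal proteins, 8 membrane proteins including the regulator Tfeb, and 7 subunits of the proton pump.

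The samples came from untreated male rats of the WNIN/Ob strain, aged 4 months and kept on stock diet, with 2 rats of the lean phenotype and 2 of the obese phenotype. Each rat gave 1 Affymetrix Rat Gene ST array. The labels give strain and phenotype but not the allele behind the obesity. Differences are given as obese minus lean on the log2 scale, with the standard error (SE) or the 95% confidence interval from limma. A gene was called at a limma adjusted p under 0.05. For 1 gene taken alone, the smallest p that an exact permutation test (two-sided) allows with these 4 rats is 0.333, and limma's calls draw on the variance of all genes.

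The median intensity of all rows was 39.9 to 44.5 across the 4 arrays. The adipocyte markers Lpl, the lipoprotein lipase, and Fabp4, a fatty acid carrier, lay between 11.85 and 12.72 on every array. Adipoq, the adiponectin gene, lay between 11.86 and 12.29, so adipocyte transcripts were abundant in every sample. Lean rat 1 stood apart in skeletal muscle markers, at a median log2 of 10.8 over 14 genes against 5.22 to 5.37 on the other arrays. Muscle actin Acta1 was at 12.88 in lean rat 1 and at 6.56 to 7.67 elsewhere, and Tnnt3, a fast troponin, at 12.27 and 6.62 to 7.43. Lean rat 2 differed in its signal range: the interquartile range over rows was 2.24 on the log2 scale, against 2.63 to 2.77 on the other arrays. Its olfactory and vomeronasal receptor genes, taken here as a gauge of background, had a median of 3.43 against 2.77 to 2.87. The arrays of the lean rats thus differed from each other, and the count of called lysosomal genes is given without each rat in turn. A fit of this kind leaves a lone rat in 1 group, which is assumed to vary like the other group. A call gained in such a fit does not show that a difference is stable.

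Lysosomes are acidic compartments in which proteins, lipids, sugars and nucleic acids are broken down after endocytosis, phagocytosis or autophagy. The vacuolar ATPase pumps protons inward to keep the lumen acidic, hydrolases work at that pH, and glycosylated membrane proteins line the inner face. In fat, adipocytes have lysosomes of their own, and macrophages, which are rich in them, are known to take up and digest lipid. Many lysosomal genes share a promoter element bound by Tfeb, a transcription factor held in check by the nutrient-sensing kinase mTORC1.

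Most lysosomal genes were higher in the obese rats, and the size of the difference varied widely between them. The median difference over the 43 genes was 1.00, equal to 2.00-fold, against 0.0004 over all 14506 genes. With quantile normalization these medians were 0.84 and 0.049. With the dimmest 25% of genes left out they were 1.00 and 0.11. In both obese rats the value was above that of either lean rat for 39 of the 43 genes (90.7%), against 26.4% of all genes. For none of them did both obese rats lie below both lean rats, against 21.3% of all genes. The other 4 genes, Ctsh, Lamp1, Tfeb and Acp5, overlapped between the groups. In bulk tissue, more cells of a type and more RNA per cell cannot be told apart.

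Few of these differences passed singly. Limma called 2 genes higher (4.65%), Lipa and Atp6v0d2, where 0.772% of all genes were called higher and 0.841% in either direction. None was called lower. At an adjusted p under 0.10 there were 5 (11.6%, against 1.73% of all genes), the others being Ctsd, Ctsz and Cd68. At an unadjusted p under 0.05 there were 29 higher (67.4%, against 9.93%). Leaving out lean rat 1 gave 13 calls where 4.58% of all genes were called higher, and leaving out lean rat 2 gave 4 where 1.34% were. The fits lacking obese rat 1 and obese rat 2 gave 3 and 7, where the shares of all genes were 1.02% and 1.62%, and Lipa and Atp6v0d2 were among them each time.

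**Figure D1:**
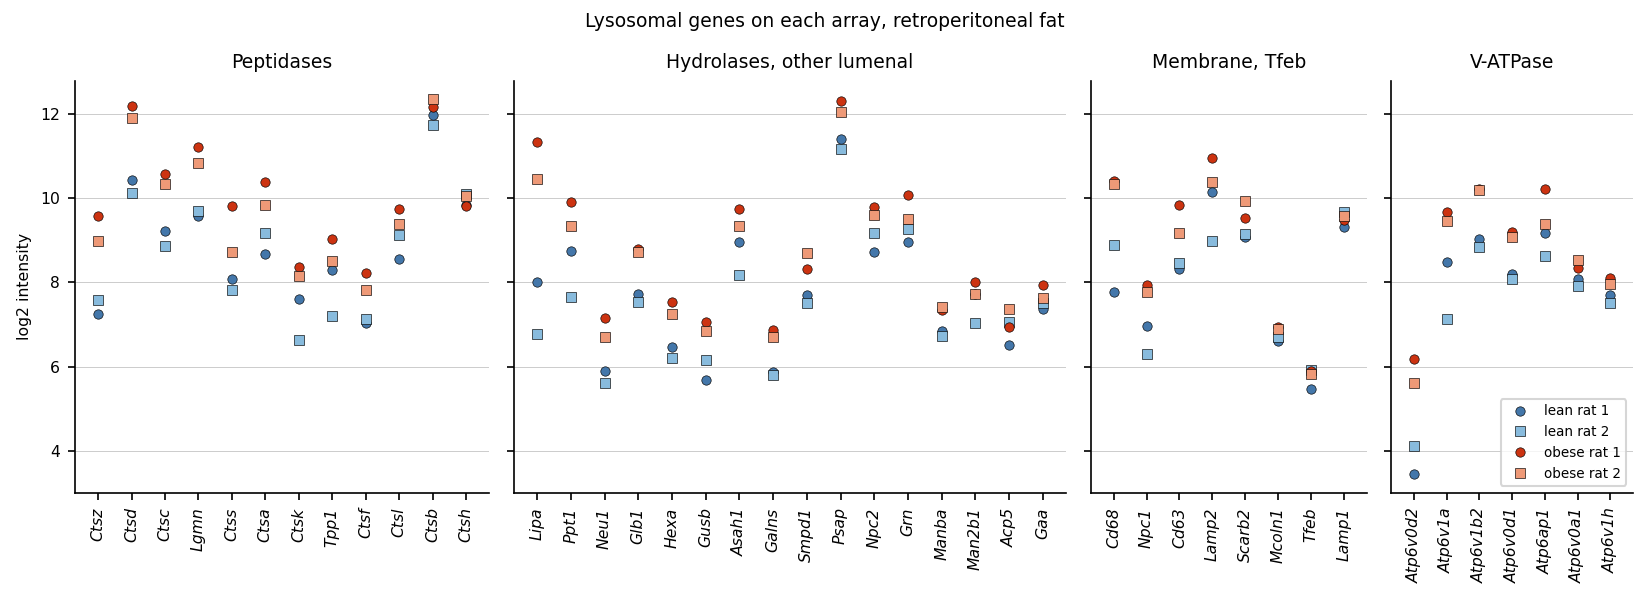
Log2 intensity (vertical axis) of each of the 43 lysosomal genes on each array, with the genes of each role ordered by their difference and blue symbols for lean, red for obese rats. For 39 genes both red symbols lie above both blue symbols, and the widest gap is that of Lipa.

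Among the cathepsins and other peptidases, 11 of 12 genes were higher in both obese rats than in both lean rats (91.7%, against 26.4% of all genes). Their median difference was 1.16. No gene of this role was called. Ctsz, a cysteine carboxypeptidase, was at 7.25 and 7.59 in the lean rats and at 9.58 and 8.98 in the obese rats. The groups were far apart, and the difference of 1.86 ± 0.33 (SE, n = 2 per group) had an adjusted p of 0.055. Ctsd, the main aspartic protease of lysosomes, was at 10.43 and 10.12 in the lean rats and at 12.17 and 11.91 in the obese rats. Its difference of 1.76 ± 0.31 had an adjusted p of 0.055 as well. Ctsz was called without lean rat 1, lean rat 2 or obese rat 2 (adjusted p = 0.048, 0.040 and 0.0047), and Ctsd without lean rat 1 or obese rat 2 (0.036 and 0.032).

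Ctsc, which activates the serine proteases of immune cell granules, was at 9.22 and 8.86 in the lean rats against 10.58 and 10.32 in the obese rats (1.41, adjusted p = 0.103). Next were Lgmn, the asparaginyl endopeptidase (1.40), Ctss, which trims the invariant chain for antigen presentation (1.32), and Ctsa, a carboxypeptidase that also protects Glb1 and Neu1 (1.17). Ctss differed between the obese rats, at 9.82 and 8.72, and its difference was 1.87 without obese rat 2, where it was called (adjusted p = 0.030), and 0.77 without obese rat 1. Ctsk, a collagen-degrading protease best known from osteoclasts, was at 1.14, the tripeptidyl peptidase Tpp1 at 1.02, Ctsf at 0.93 and Ctsl at 0.72. Without lean rat 1, in which both were higher than in lean rat 2 (7.60 against 6.63 and 8.30 against 7.20), Ctsk and Tpp1 were called at 1.62 and 1.57 (adjusted p = 0.035 and 0.048). Without lean rat 2 they were at 0.66 and 0.47 (0.320 and 0.550).

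Ctsb and Ctsh had the smallest differences of the peptidases. Ctsb, an abundant cysteine protease, was at 11.95 and 11.73 in the lean rats and at 12.16 and 12.33 in the obese rats, a difference of 0.41 with an interval from -0.29 to 1.11. Ctsh, an aminopeptidase, was at 9.85 and 10.10 in the lean rats and at 9.81 and 10.05 in the obese rats. Its difference was -0.04 with an interval from -0.76 to 0.68, and its sign turned when arrays were centred on their medians (0.057). The interval of Ctsh ended below that of Ctsz and Ctsd began (1.09 and 1.04), but differences between genes were not tested.

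The genes of lipid digestion held the largest difference. Lipa encodes lysosomal acid lipase, which frees fatty acids and cholesterol from the esters that reach the lysosome. It was at 7.999 and 6.785 in the lean rats and at 11.33 and 10.46 in the obese rats. The groups were separated by more than the gap within either of them, and Lipa rose by 3.51 ± 0.48 (SE, n = 2 per group, adjusted p = 0.025), which is 11.4-fold. It had the ninth largest difference of the 14506 genes. With a rat left out its difference ran from 2.90 to 4.11, and it was called under every alternative fitted.

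The other lipid genes had smaller differences. Ppt1, which removes palmitate from proteins, was at 8.74 and 7.65 in the lean rats and at 9.91 and 9.34 in the obese rats (1.43, adjusted p = 0.197). Ppt1 was called without lean rat 1 (1.98, adjusted p = 0.037) and was at 0.89 without lean rat 2 (0.290). The acid ceramidase Asah1 was at 0.98, the acid sphingomyelinase Smpd1 at 0.90, the saposin precursor Psap at 0.89 and the cholesterol carrier Npc2 at 0.75. All 6 lipid genes were above both lean rats in both obese rats, as were 26.4% of all genes. Those other than Lipa had limma adjusted p of 0.197 to 0.323.

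All 8 sugar hydrolases measured were higher in both obese rats, as were 26.4% of all genes. Their differences were 0.33 to 1.17, and none was called. Neu1, the sialidase, was at 5.91 and 5.61 in the lean rats and at 7.16 and 6.70 in the obese rats (1.17, adjusted p = 0.123). Close to it were the beta-galactosidase Glb1 (1.13), the hexosaminidase subunit Hexa (1.04), the beta-glucuronidase Gusb (1.03) and the sulfatase Galns (0.93). The mannosidases were lower in the order, with Manba at 0.59 and Man2b1 at 0.49. Gaa, which breaks down glycogen, was at 7.37 and 7.52 in the lean rats and 7.93 and 7.63 in the obese rats, and its difference of 0.33 had an interval from -0.33 to 0.99. Of the remaining lumenal proteins, progranulin (Grn) was at 0.67, and Acp5, the tartrate-resistant phosphatase of osteoclasts and macrophages, was at 0.36 with overlapping groups.

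The membrane proteins covered the range from no measured difference to one of the largest. Cd68, a heavily glycosylated protein of macrophage lysosomes, was at 7.77 and 8.88 in the lean rats and at 10.40 and 10.33 in the obese rats. The obese rats were close to each other, the lean rats were further apart, and the adjusted p was 0.075 for a difference of 2.04. With a rat left out the difference of Cd68 ran from 1.48 to 2.59. Npc1, which exports cholesterol from the lysosome, was at 6.96 and 6.31 in the lean rats and at 7.95 and 7.78 in the obese rats (1.23, adjusted p = 0.143). Npc1 was called without lean rat 1 (1.56, adjusted p = 0.035) and was at 0.90 without lean rat 2 (0.172). The tetraspanin Cd63 was at 8.32 and 8.46 in the lean rats and at 9.84 and 9.16 in the obese rats (1.11, adjusted p = 0.210).

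Lamp1 and Lamp2 encode the most abundant proteins of the lysosomal membrane, and their values differed. Lamp2 was at 10.13 and 8.99 in the lean rats and at 10.95 and 10.38 in the obese rats, a difference of 1.11 with an interval from 0.098 to 2.12. That difference ran from 1.68 without lean rat 1, where Lamp2 was called (adjusted p = 0.0497), to 0.54 without lean rat 2 (0.524). Lamp1 was at 9.30 and 9.66 in the lean rats and at 9.47 and 9.57 in the obese rats, so the obese rats lay between the lean rats. Its difference of 0.038 had an interval from -0.68 to 0.75, and its sign turned with quantile normalization (-0.15). The intervals of the Lamp genes overlap. Scarb2, the receptor that carries glucocerebrosidase to the lysosome, was at 0.61, and the calcium channel gene Mcoln1 was at 0.27.

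Tfeb itself was at 5.48 and 5.93 in the lean rats and at 5.91 and 5.82 in the obese rats. Its groups overlapped, and its difference of 0.16 had an interval from -0.44 to 0.76. Without lean rat 1 its sign turned (-0.065). Of its relatives Mitf was at 0.36 and Tfec, which is known from myeloid cells, at 0.77 (adjusted p = 0.206). Tfeb acts largely by moving into the nucleus, which transcript levels do not measure.

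Promoters were searched for the core of the element that Tfeb binds, TCACGTGA, because Tfeb and its relatives are known to act on lysosomal genes through it. RefSeq promoter windows of build GRCr8, from 250 bases before to 50 bases after the start, were matched by gene ID for 35 of the 43 genes. Of 33469 windows, only the first listed for each of 27457 genes was searched. The element, which reads the same on both strands and contains the E-box CACGTG, was found in 4 of the 35 genes (11.4%). It was found in 0.867% of the 27457 genes and in 1.25% of the 11951 among them on the array. CACGTG was found in 8 (22.9%), against 6.65% of the 27457 genes. The 100 bases before the start are shown for 3 genes with the core element and, for contrast, for Lipa, which had the largest difference, with the element in capitals:
Ctsd: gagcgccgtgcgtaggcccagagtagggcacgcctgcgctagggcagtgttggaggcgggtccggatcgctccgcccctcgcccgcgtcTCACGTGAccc
Atp6v0d1: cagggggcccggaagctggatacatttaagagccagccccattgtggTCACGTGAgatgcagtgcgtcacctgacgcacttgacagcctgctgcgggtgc
Lamp1: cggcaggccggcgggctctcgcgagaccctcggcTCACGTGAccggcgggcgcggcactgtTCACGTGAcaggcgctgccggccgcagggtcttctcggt
Lipa: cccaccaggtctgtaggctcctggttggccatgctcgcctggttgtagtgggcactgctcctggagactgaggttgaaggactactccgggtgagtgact
They lie at chr1:206968822-206968921, chr19:50357249-50357348, chr16:83075064-83075163 and chr1:241470741-241470840, all on the minus strand.

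The element began at -11 in Ctsd, at -53 in Atp6v0d1 and at -66 and -39 in Lamp1, and in Mcoln1 it lay just after the start. Genes that hold it were spread over the whole range of differences, with Ctsd at 1.76, Atp6v0d1 at 1.00, Mcoln1 at 0.27 and Lamp1 at 0.038. Their median was 0.63, against 1.02 for the 31 genes without it in this window. For CACGTG the medians were 0.97 with it and 1.02 without, and for the GAGGAAGT motif described next, with 2 genes, 1.36 and 0.93. No core element was found in the 1 window searched for Lipa. The letters GAGGAAGT, a motif of the ETS factors that include the myeloid factor PU.1, were searched on both strands. They were found in Ctsc and Ctss (5.71% of 35), against 2.44% of the 27457 genes with a window. In Ctss the match lies on the minus strand from -17, in chr2:185775296-185775395 on the plus strand, and is printed in capitals as it reads on the strand of the gene:
Ctss: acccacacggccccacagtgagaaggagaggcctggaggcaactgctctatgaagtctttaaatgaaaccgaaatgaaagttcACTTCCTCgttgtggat
A match is a description of letters and not of binding.

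All 7 proton pump genes of the list were higher in both obese rats, as were 26.4% of all genes. Their median difference was 1.00. Atp6v0d2 encodes the d2 form of a stalk subunit, known from osteoclasts and macrophages. It was at 3.46 and 4.13 in the lean rats and at 6.18 and 5.63 in the obese rats, and rose by 2.11 ± 0.31 (SE, n = 2 per group, adjusted p = 0.028). In the lean rats it lay below the 95th percentile of olfactory and vomeronasal receptor genes on the same arrays (4.68 and 5.24), a level near background, and its fold change is therefore poorly determined. Its call was lost when all 29214 rows were tested together (adjusted p = 0.062).

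Its widely expressed counterpart, Atp6v0d1, was at 8.19 and 8.08 in the lean rats and at 9.20 and 9.08 in the obese rats, a difference of 1.00 with an interval from 0.33 to 1.68 (adjusted p = 0.189). The catalytic subunit gene Atp6v1a was at 8.48 and 7.12 in the lean rats and at 9.66 and 9.45 in the obese rats (1.76, adjusted p = 0.140). It was called without lean rat 1 (2.43, adjusted p = 0.028) and without obese rat 2 (1.86, adjusted p = 0.030), but was at 1.08 without lean rat 2 (0.147), and a second row of the same gene gave 1.67. Atp6v1b2, which pairs with it in the catalytic ring, was at 9.02 and 8.83 in the lean rats and at 10.22 and 10.20 in the obese rats (1.28, adjusted p = 0.114). The accessory gene Atp6ap1 was at 0.90, and Atp6v0a1 was at 0.44. Atp6v1h, a regulatory subunit with the smallest difference of the pump genes in the list (0.42), was at 7.70 and 7.52 in the lean rats and at 8.10 and 7.95 in the obese rats.

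**Figure D2:**
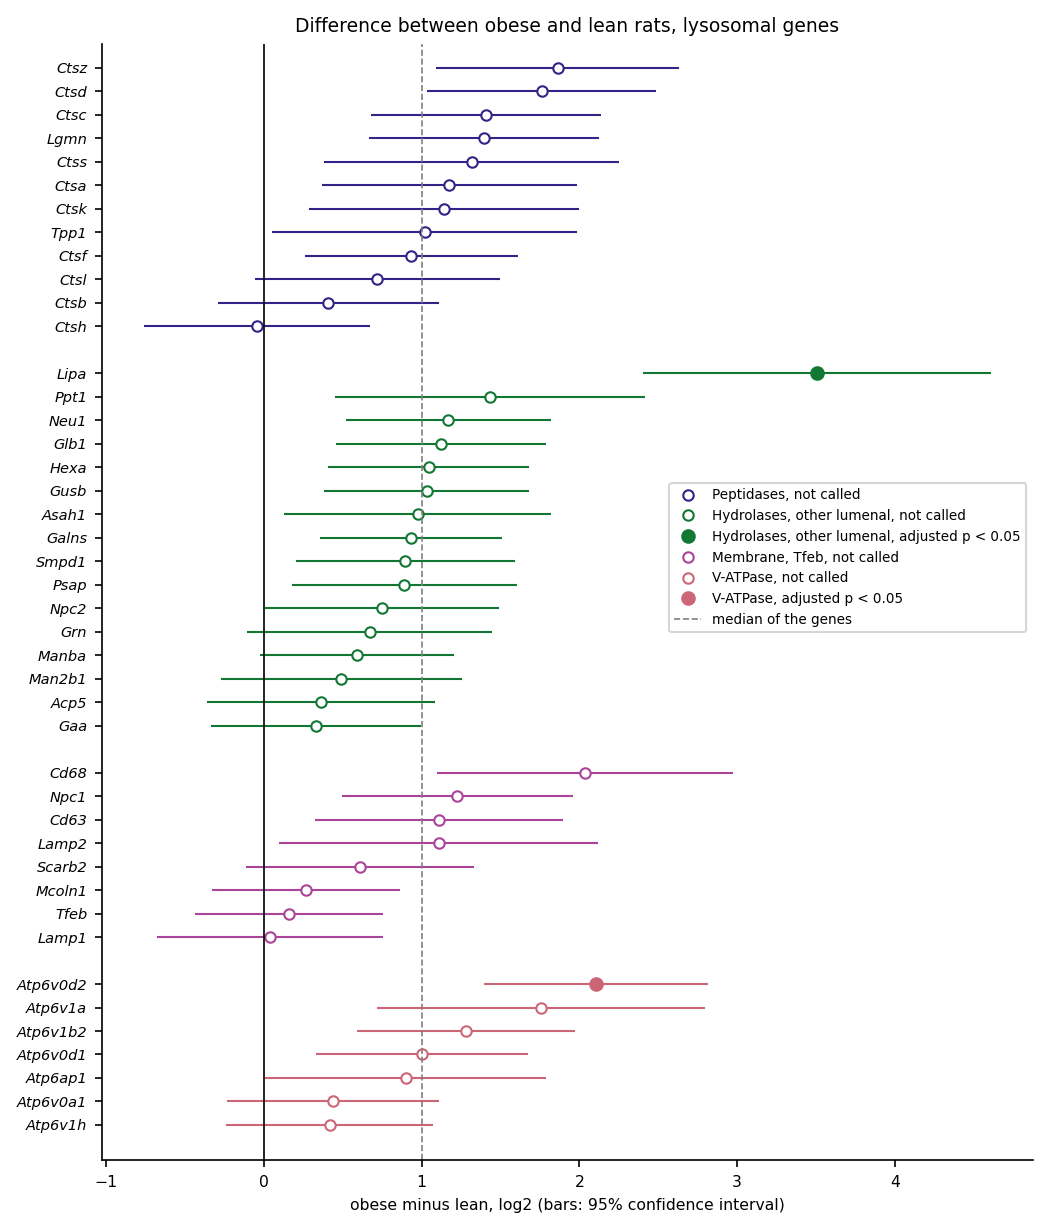
Obese minus lean difference in log2 (horizontal axis) for the 43 lysosomal genes, with bars for the 95% confidence interval from limma, filled symbols for called genes and a dashed line at the median of 1.00. Lipa and Atp6v0d2 are the filled symbols, and the intervals of Ctsh, Lamp1 and Tfeb are among those that span 0.

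Of 17 further pump subunits none was called and the median was 0.85. In both obese rats 11 lay higher (64.7%, against 26.4% of all genes). Tcirg1, the a3 subunit known from osteoclasts and macrophages, was at 5.92 and 6.13 in the lean rats and at 8.32 and 7.21 in the obese rats (1.74, adjusted p = 0.098). Removing obese rat 2 raised the difference of Tcirg1 to 2.30, and removing obese rat 1 lowered it to 1.19. Removal of lean rat 1 gave 1.64, and removal of lean rat 2 gave 1.84. Atp6ap2, an accessory subunit, was at 1.32 (adjusted p = 0.145). The 5 subunits with a difference under 0, Atp6v0a4, Atp6v1b1, Atp6v1e2, Atp6v1g2 and Atp6v1g3, are forms known mainly from kidney, testis or brain, and lay between -0.33 and -0.04. Of these, Atp6v0a4, Atp6v1b1 and Atp6v1g3 were below the 95th percentile of the receptor genes on every array and Atp6v1e2 on all but 1, so their differences are those of values near background. Over all 24 pump genes measured, 15 were higher at a limma unadjusted p under 0.05 (62.5%, against 9.93% of all genes). None was lower at that p, where 773 of all 14506 genes were.

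**Figure D3:**
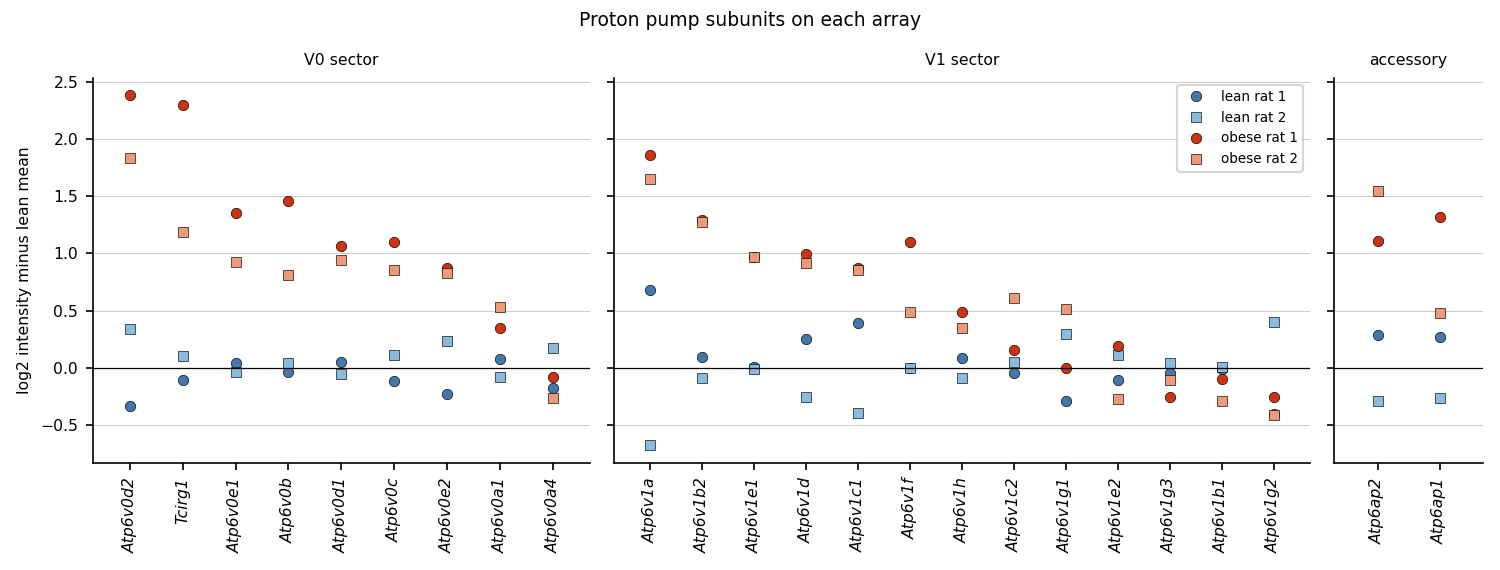
Log2 intensity minus the mean of the lean rats (vertical axis) for 24 proton pump genes on each array, split into the membrane sector V0, the cytosolic sector V1 and accessory subunits. Atp6v0d2 and Tcirg1 stand highest in the V0 sector and Atp6v1a in the V1 sector, and the 5 genes with a difference under 0 lie at the right ends of the sectors.

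Other lysosomal genes, from lists beyond the 44, gave 2 more calls. Of 21 further hydrolases and lumenal proteins, 1 rose (4.76%, against 0.772% of all genes), none fell and 20 were not called, with a median of 0.66. The called gene was Galc, the galactosylceramidase, at 5.85 and 4.92 in the lean rats and at 7.84 and 7.36 in the obese rats (2.22, adjusted p = 0.041). The call of Galc was lost with quantile normalization (adjusted p = 0.084), with median centring (0.060), without the variance trend (0.051) and over all rows (0.078). Of 24 further membrane proteins 1 rose (4.17%, against 0.772% of all genes), none fell and 23 were not called, with a median of 0.70. It was Laptm5, a lysosomal protein of blood cells, at 6.83 and 7.03 in the lean rats and at 10.16 and 9.11 in the obese rats (2.71, adjusted p = 0.028, and 0.063 with quantile normalization).

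Genes that act around the lysosome had smaller medians. None of 9 genes that sort enzymes to the lysosome was called (median 0.53), with the mannose 6-phosphate receptor M6pr at 1.18 and the sulfatase activator Sumf1 at 0.64. None of 13 genes of the Tfeb family and of mTORC1 at the lysosome was called (median 0.34), and Rragc, a GTPase that recruits mTORC1, was at 1.15 (adjusted p = 0.143). None of 18 autophagy genes was called (median 0.37), with Atg7 at 0.97 and Becn1 at 0.56. Of the 5 cystatins, which inhibit cysteine cathepsins, none was called and the median was -0.08. Cst7, the cystatin of immune cells that enters lysosomes, was at 5.57 and 6.92 in the lean rats and at 8.05 and 7.76 in the obese rats (1.65, adjusted p = 0.148), and Cstb was at 0.80. Cst7 was called without lean rat 2 (2.33, adjusted p = 0.010) and without obese rat 2 (1.80, adjusted p = 0.020), and was at 0.98 without lean rat 1 (0.0787).

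**Figure D4:**
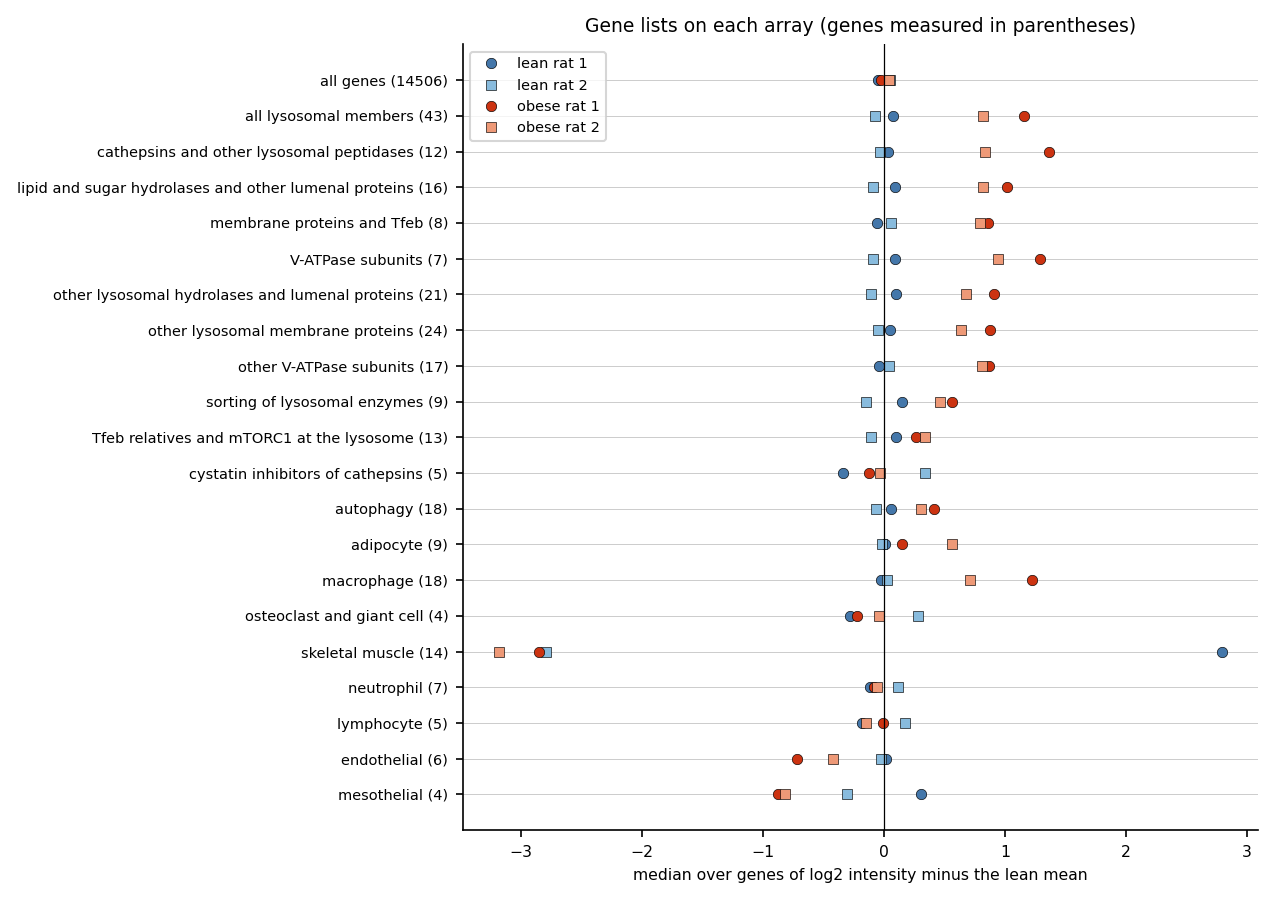
Median over genes of the log2 intensity minus the lean mean (horizontal axis) on each array, for the lysosomal genes by role, further pathway lists and markers of cell types, with the number of genes measured in parentheses. The lysosomal genes lie at 1.16 and 0.82 in the obese rats, macrophage markers at 1.22 and 0.71, and skeletal muscle markers stand apart in lean rat 1.

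Some macrophage markers were higher in the obese rats together with the lysosomal genes, and others were not. Of 18 markers, 5 rose (27.8%, against 0.772% of all genes called higher), none fell and 13 were not called. Their median was 0.95, and 12 were higher in both obese rats (66.7%, against 26.4% of all genes). The called markers were the lysozyme gene Lyz2 (3.92), the integrins Itgb2 (3.39) and Itgam (2.30), the pore-forming Mpeg1 (2.71) and the Fc receptor Fcgr1a (2.14). The scavenger receptor Cd163 (-0.05), Cd14 (0.15) and the complement genes C1qa (0.27) and C1qb (0.49) overlapped between the groups although they lay at 6.89 or higher on every array. The summed intensity of the 18 markers was 4876 and 4325 in the lean rats and 15580 and 9750 in the obese rats. Sums of this kind are weighted to the brightest genes. Among these markers Lyz2 stood highest in the obese rats, at 11.88 and 10.65. Mrc1, the mannose receptor, and Cybb, an oxidase subunit, were both at 1.61 (adjusted p = 0.099 and 0.074), while Ms4a7 and Marco, close to the receptor genes' 95th percentile, also overlapped. The summed intensity of the 43 lysosomal genes was 20860 and 18750 in the lean rats and 43090 and 36080 in the obese rats. Obese rat 1 exceeded obese rat 2 in 35 of the 43 lysosomal genes and in 15 of 18 macrophage markers, against 45.5% of all genes. It also did so in 5 of 5 lymphocyte and 11 of 14 skeletal muscle markers. The counts were 4 of 7 for neutrophil, 2 of 6 for endothelial, 1 of 4 for mesothelial and 1 of 4 for osteoclast markers. The median lymphocyte and neutrophil marker lay below the receptor genes' 95th percentile on every array. Their counts are thus largely those of values near background. Among the 9 adipocyte markers there was none. The part of the macrophage markers in the lysosomal differences was not tested.

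Leaving muscle aside, marker lists of other cells had medians from -0.84 to 0.32. None of their genes was called, against 0.841% of all genes. Adipocyte markers had a median of 0.32, neutrophil markers -0.01, lymphocyte markers -0.02, endothelial markers -0.62 and mesothelial markers -0.84. Most neutrophil and lymphocyte markers lay near background, so their medians say little about those cells. Of the osteoclast and giant cell markers 4 were measured and none was called. Mmp9, a matrix protease, was at 0.95 (adjusted p = 0.203), Car2, a carbonic anhydrase, at -1.11 (0.224), the integrin Itgb3 at -0.36, and the calcitonin receptor Calcr at 0.10 near background. Skeletal muscle markers were higher in lean rat 1 than in lean rat 2 for all 14 genes. Lean rat 1 also exceeded lean rat 2 in 25 of the 43 lysosomal genes (58.1%, against 41.7% of all genes). The lysosomal genes were brighter, with lean medians of 8.08 and 7.65 against 5.82 and 5.80 over all genes. The parts of muscle and of the narrower signal range of lean rat 2 in their values were not tested. The median difference of the lysosomal genes was 1.04 without lean rat 1 and 0.90 without lean rat 2, against 1.00 with all rats. Each of these fits rests on a lone lean array, so they do not isolate the part of muscle.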

How the data were processed

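Gene expression was measured in retroperitoneal fat of 4 rats. The authors deposited 1 table of intensity values per array row, and the RMA method is named per the submitters' processing notes. Values are linear, as read from their range, and the sources used here do not give the software version, probe-set level or genome build. They were taken to log2 with no pseudocount and no further normalization. The platform annotation names 1 gene for 15310 of 29214 rows, several for 323 and none for 13581. A gene with several rows (527 genes) was represented by its row of highest mean, which left 14506 genes.

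The comparison of phenotypes used limma 3.58.1 (R 4.3.3, variance trend, Benjamini-Hochberg adjustment over all genes, threshold 0.05), after the procedure was tested on simulated data. Nothing in the labels says more than that the 4 samples are separate rats. Values on all arrays are given for called genes, the 3 largest differences and the lowest of each role, and Tfeb. From each further pathway list the called genes are named, or, in lists without a call, the 2 of lowest p, and from the adipocyte, macrophage and muscle markers the 2 of highest mean. Other genes were named, or given on all arrays, after their values were seen. The 44 genes and all lists were chosen with earlier results of these data known. Alternatives covered the replicate number, normalization, variance model, array weights, low genes, row choice, threshold and each rat left out.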

Additional observations from a re-analysis of the deposited data

How the results depend on the processing

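Precision is limited by 2 rats per group. The labels share rat numbers between the groups but state no pairing. The correlation over genes of the deviations of lean rat 1 and obese rat 1 was 0.02. With 2 rats per group that value cannot decide whether same-numbered rats were handled together. With the number as a replicate block, 327 genes and 6 of the 43 lysosomal genes were called, against 122 and 2. Lysosomal calls were 2 with quantile normalization and 4 without the variance trend, where 75 and 101 of all 14506 genes were called. They were 5 with the robust variance model, 5 with array weights and 5 at a threshold of 0.10. The counts over all genes there were 262, 171 and 301. With all 29214 rows tested, 185 rows and 1 lysosomal gene were called. With each rat left out in turn, where a lone rat is assumed to vary like the other group, 268 to 1081 genes and 3 to 13 lysosomal genes were called. The medians then ran from 0.82 to 1.16 for all lysosomal genes, 0.83 to 1.39 for peptidases, 0.82 to 1.02 for hydrolases, 0.59 to 0.86 for membrane proteins and 0.94 to 1.29 for the pump. Quantile normalization gave 0.77 for hydrolases and 0.69 for membrane proteins, and median centring 0.96 for the latter. Signs turned for Lamp1 (0.038, but -0.15 with quantile normalization and -0.14 to 0.22 with a rat left out), Ctsh (-0.04, but 0.057 with centring and -0.17 to 0.087 with a rat left out), Tfeb (-0.065 to 0.38 with a rat left out) and Acta1 (-5.77 to 0.13, the latter without lean rat 1). The cause was not tested. Of 602 values for single lysosomal genes, 559 kept direction and side of their setting's threshold. Another 35 newly passed it, 1 lost it and 7 changed sign. In the setting of 0.10 that threshold was 0.10 itself, and Ctsd, Ctsz and Cd68 were counted as newly passing there.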

Other observations

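Some lysosomal genes outside the 44 were picked out after their values were seen. Ifi30, the thiol reductase that opens disulfide bonds of antigens, was at 6.65 and 6.88 in the lean rats and at 9.26 and 8.17 in the obese rats (1.95, limma adjusted p = 0.077). The lysosomal transporters Slc15a3, for histidine and peptides, and Slc36a1, for small amino acids, were at 1.49 and 1.29 (adjusted p = 0.077 and 0.093). Naaa, which hydrolyses palmitoylethanolamide, was at 1.18 (adjusted p = 0.143). None of these passed the threshold. Ctse, an aspartic protease of endosomes, ran the other way, at 7.57 in lean rat 1, 5.48 in lean rat 2, and 5.37 and 5.09 in the obese rats. Its difference of -1.29 (adjusted p = 0.338) came with a wide gap between the lean rats.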
